A study of Mus musculus with 22 samples.

Results

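Ighv3-3 and Ighv3-5 are minor members of the mouse Ighv3 family, and they were followed through the immunoglobulin heavy chain (Igh) repertoire of kidney B cells. The members are all sequences whose first assigned V segment was Ighv3-3 (IGHV3-3 in the tables) or Ighv3-5 (IGHV3-5). They came to 1034 of 17178 deposited sequences, or 6.02%, with 699 for Ighv3-3 and 335 for Ighv3-5. The pair was selected on its shares in the compartments, which had opposite mean shifts: in PBS mice Ighv3-3 was higher, and Ighv3-5 lower, outside the vessels than inside them. Every difference between compartments is therefore given here as a description without a test.

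The libraries came from female wild-type C57BL/6 mice aged 8 to 10 weeks. The urinary bladder had been inoculated on 2 occasions with uropathogenic Escherichia coli (UPEC, 5 mice) or with PBS as the control (6 mice), and kidneys were taken on day 56. An anti-CD45 antibody injected into the circulation before death labelled the cells within vessels. B cells were then sorted from each kidney into a labelled, intravascular fraction (IN) and an unlabelled, extravascular fraction (EX). Each of the 11 mice gave a library of each fraction, 22 libraries in all, and a mouse is named here by its treatment and number, for example PBS1. Libraries of PBS EX held 750 to 2134 sequences, PBS IN 344 to 611, UPEC EX 244 to 1102 and UPEC IN 347 to 938. V segments were amplified with a mix of V primers, so that a share depends on the primers and does not count cells.

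An antibody heavy chain gene is assembled in each developing B cell from a V, a D and a J segment. Exonucleases trim the segment ends, and terminal deoxynucleotidyl transferase adds untemplated N nucleotides between them, beside short palindromic P nucleotides. The junction, which runs from the conserved cysteine codon of the V segment to the conserved tryptophan codon of the J segment, is therefore used to group sequences that may descend from a single rearrangement, although the same junction can also arise more than once, above all without N nucleotides. Fetal B cell precursors have little of this transferase, and junctions without N nucleotides are common among B-1 cells, which are in part of fetal origin. The constant region then sets the isotype, starting with Ighm and Ighd and changing to Igha or an Ighg or Ighe gene on class switching. In what follows a clonotype is a group of sequences with the same junction nucleotides, V segment and J segment, and the insert is the total of N and P nucleotides on both sides of the D segment.

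Ighv3-3 and Ighv3-5 lie on the minus strand of chromosome 12. In GRCm38 the V exon of Ighv3-3 spans chr12:114196439-114196734 from the first codon of the mature V region, and that of Ighv3-5 spans chr12:114262652-114262950. Both are annotated as functional immunoglobulin V genes, with Ighv3-4 between them. The 2 segments are printed because the bases that differ between them, in capitals, tell them apart. Read 5′ to 3′ from the reference genome, they are as follows.
Ighv3-3: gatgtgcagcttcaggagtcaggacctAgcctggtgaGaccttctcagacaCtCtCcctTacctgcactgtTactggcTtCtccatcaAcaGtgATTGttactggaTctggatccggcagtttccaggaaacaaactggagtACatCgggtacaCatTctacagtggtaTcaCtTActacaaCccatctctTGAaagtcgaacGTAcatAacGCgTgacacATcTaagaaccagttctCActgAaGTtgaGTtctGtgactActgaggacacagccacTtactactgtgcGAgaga
Ighv3-5: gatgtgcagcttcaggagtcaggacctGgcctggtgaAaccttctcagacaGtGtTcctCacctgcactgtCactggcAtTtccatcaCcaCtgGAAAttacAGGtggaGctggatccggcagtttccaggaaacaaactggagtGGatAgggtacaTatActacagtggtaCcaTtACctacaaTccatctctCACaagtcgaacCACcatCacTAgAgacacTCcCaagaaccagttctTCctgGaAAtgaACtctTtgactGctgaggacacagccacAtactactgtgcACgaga

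The 2 segments were 81.9% identical over 299 aligned positions, with 51 mismatches and 3 gapped positions. Ighv3-3 was closer to Ighv3-1 (86.1% identical), and Ighv3-5 was closer to Ighv3-4 (86.3%), than either was to the other. They also differ at the border of the first and second codon after the conserved cysteine, where Ighv3-3 ends in tgtgcGAgaga and Ighv3-5 in tgtgcACgaga. The V assignments were distinct. Among the 676 Ighv3-3 sequences with at least 200 nt of V, none differed from the Ighv3-3 reference at more than 3 positions, and the nearest other Ighv3 segment differed from them at 32 or more. Among the 299 such Ighv3-5 sequences these values were 5 and 36. No sequence of either segment, including the 23 and 36 with a shorter V, lay nearer to another Ighv3 segment.

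The junctions of the 9 clonotypes with at least 20 sequences in 1 library, called expanded below, are printed because they were the largest of these segments. Inserted nucleotides are in capitals, and each line names the segment and the library.
Ighv3-3 PBS1 EX: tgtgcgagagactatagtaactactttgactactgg
Ighv3-3 PBS4 EX: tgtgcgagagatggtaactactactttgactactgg
Ighv3-3 UPEC5 EX: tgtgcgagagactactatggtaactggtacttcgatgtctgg
Ighv3-3 PBS2 EX: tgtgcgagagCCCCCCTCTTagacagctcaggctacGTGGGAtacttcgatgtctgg
Ighv3-5 PBS6 EX: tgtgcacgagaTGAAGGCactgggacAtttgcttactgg
Ighv3-5 UPEC2 EX: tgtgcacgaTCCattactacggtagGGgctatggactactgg
Ighv3-5 UPEC5 EX: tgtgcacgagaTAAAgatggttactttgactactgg
Ighv3-5 PBS1 IN: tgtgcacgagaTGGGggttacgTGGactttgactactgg
Ighv3-5 UPEC4 IN: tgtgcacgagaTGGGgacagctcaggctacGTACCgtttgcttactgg
The first 3 junctions of Ighv3-3 have no inserted nucleotide, and all 4 expanded Ighv3-3 clonotypes lay in EX libraries. Most expanded clonotypes of other V segments, 94 of 103, also lay in EX. All 5 junctions of Ighv3-5 carry an insert, of 4 to 9 nt, and they were spread over 3 EX and 2 IN libraries. The junctions of PBS1 IN and UPEC4 IN share their V segment and the inserted TGGG after it but not their D segment.

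Ighv3-3 made up a large share of a single library. In PBS EX it accounted for 22.8% of the sequences of PBS1, 3.71% of PBS4, 1.76% of PBS2 and 0.871% of PBS6, and it was not found in PBS3 or PBS5. A count of 0, read as at most 3 sequences of the library, allows shares of up to 0.175% and 0.400% there, and the upper Wilson 95% limits were 0.224% and 0.510%. The mean was 4.86% ± 8.91 (SD, n = 6) and the median 1.31%, so the mean was set by PBS1. In PBS IN the segment was found in all 6 mice, at 1.03% to 4.60% and with a mean of 2.47% ± 1.32 (SD, n = 6). In UPEC EX it reached 3.86% in UPEC5 and 0.404% in UPEC4 and was at 0 in the other 3 mice, for a mean of 0.853% ± 1.69 (SD, n = 5). In UPEC IN it was at 5.48% in UPEC2, 4.74% in UPEC1, 0.531% in UPEC5, 0.172% in UPEC3 and 0 in UPEC4, with a mean of 2.18% ± 2.69 (SD, n = 5). The IN libraries of the UPEC mice thus fell into high and low values with none between 0.531% and 4.74%.

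Ighv3-5 was nearly missing from the extravascular libraries of PBS mice. It was at 0 in PBS1, PBS2, PBS4 and PBS5 EX, was a single sequence (0.0585%) in PBS3 and made up 3.66% in PBS6. The PBS EX mean of 0.620% ± 1.49 (SD, n = 6) therefore rested on PBS6. In PBS IN it was at 9.48% in PBS1, 4.65% in PBS5, 4.22% in PBS3, 2.49% in PBS2, 0.438% in PBS4 and 0 in PBS6, with a mean of 3.55% ± 3.47 (SD, n = 6). PBS6 was thus the reverse of the other PBS mice, with the segment in EX and none among 611 IN sequences. In UPEC EX it was at 5.98% in UPEC2, 5.50% in UPEC5, 1.88% in UPEC4, 1.23% in UPEC1 and 0 in UPEC3, with a mean of 2.92% ± 2.67 (SD, n = 5). In UPEC IN all 5 mice carried it, at 1.21% to 4.16% and with a mean of 3.12% ± 1.16 (SD, n = 5). The single library share has a counting error of its own. The Wilson 95% interval of the PBS1 EX share of Ighv3-3 was 21.1% to 24.6%, and that of the UPEC1 EX share of Ighv3-5, which rests on 3 of 244 sequences, was 0.419% to 3.55%. These intervals and the limits for a count of 0 cover counting error only.

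**Figure D1:**
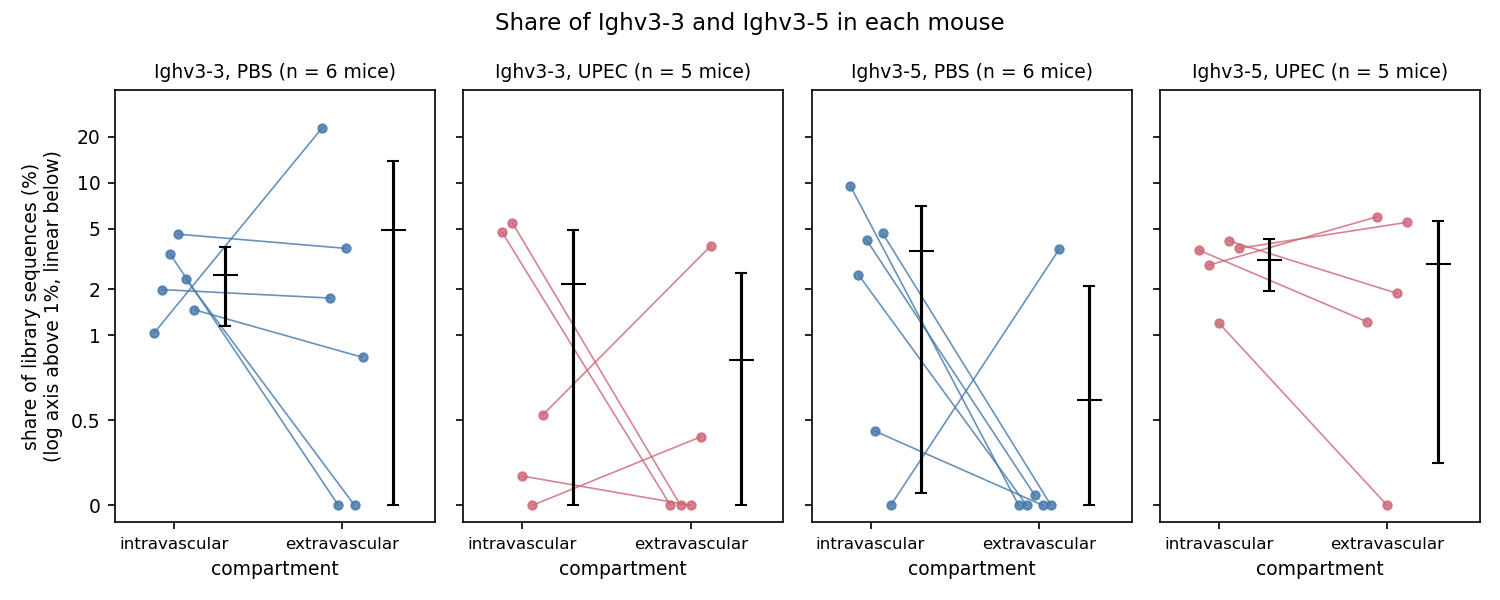
Share of library sequences (%, log axis above 1% and linear below) with Ighv3-3 (left panels) and Ighv3-5 (right panels) in intravascular and extravascular libraries; lines join the libraries of a mouse, and black marks are the mean ± SD, drawn down to 0 where the SD exceeds the mean. A single PBS mouse, PBS1, rises to 22.8% for Ighv3-3, while 5 of 6 PBS mice fall for Ighv3-5.

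The mean shift of Ighv3-3 toward EX in PBS mice came from 1 mouse. The EX minus IN difference was 2.39 percentage points (SD 9.58, n = 6), yet it was 21.8 in PBS1 and negative in the other 5 mice, from -3.41 to -0.239. Without PBS1 the mean difference was -1.49. In UPEC mice it was -1.33 (SD 3.70, n = 5), positive in 2 mice and negative in 3. For Ighv3-5 the PBS difference was -2.93 percentage points (SD 4.41, n = 6), negative in 5 of 6 mice, and the UPEC difference was -0.199 (SD 2.50, n = 5), negative in 3 of 5. Apart from PBS1, the PBS means of both segments therefore lay below 0.

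How the sequences were counted changed the sign for Ighv3-3. Weighted by reads, the PBS difference was 2.00 percentage points, and with each clonotype counted once it was 1.23. When clonotypes whose junction was 1 nt from that of a more frequent clonotype of the same library were joined to it, a step called merging here and added after the data had been seen, the difference was -0.732 (SD 2.12, n = 6), and PBS1 fell from 13.7 to 3.53. For Ighv3-5 the PBS difference stayed negative under all 4 ways of counting, at -4.04 by reads, -2.08 by clonotypes and -1.99 by merged clonotypes. The largest of the other family members also depended on the counting: Ighv3-8 had a PBS difference of 1.11 by sequences, -1.81 by clonotypes and -10.7 by merged clonotypes.

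**Figure D2:**
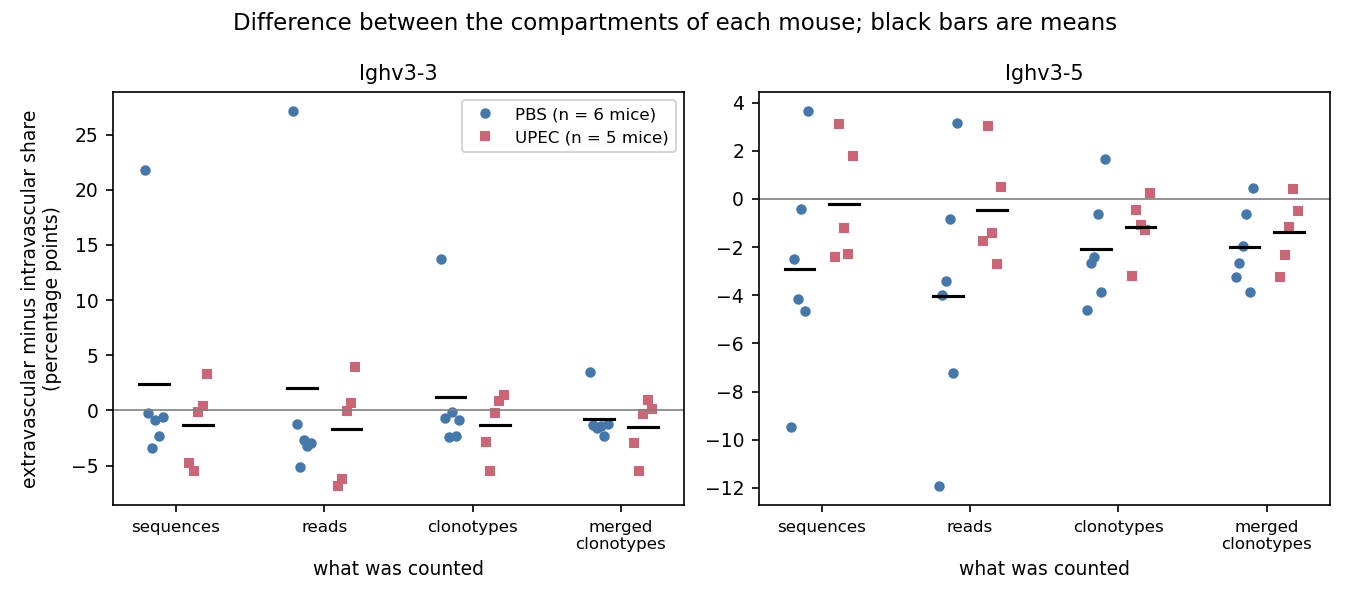
Extravascular minus intravascular share of each mouse (percentage points, one point per mouse, black bars are means) for Ighv3-3 and Ighv3-5, with sequences, reads, clonotypes or merged clonotypes counted. The PBS mean of Ighv3-3 goes from 2.39 by sequences to -0.732 by merged clonotypes as PBS1 drops from 21.8 to 3.53, and that of Ighv3-5 stays below 0 throughout.

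The comparison of UPEC with PBS mice shares its PBS libraries with the contrast on which the pair was selected, so its values for the pair are not independent of that choice and are given without a p. On log2 shares, limma compared the groups in each compartment over all V segments found in at least 5 of its 11 libraries. It called 0 of 38 segments in EX and 0 of 33 in IN (background 0%), with 1 segment in each at an unadjusted p below 0.05. That segment in EX was Ighv3-5, a selected member, so it is no independent result. In EX Ighv3-5 was at a mean log2 share of -3.17 in PBS and 0.39 in UPEC mice, a difference of 3.56 (SE 1.16). The log2 value holds a prior of 0.5 sequences and so depends on the libraries at 0. With a single mouse left out the difference was 4.56 without PBS6, the PBS EX library that held 42 of the 43 Ighv3-5 sequences of its group, 4.75 without UPEC3 and 3.03 to 3.62 without any other. On plain shares the UPEC mean of Ighv3-5 in EX was 2.30 percentage points above the PBS mean. In IN Ighv3-5 differed by 0.78 on the log2 scale (SE 0.98), but by -0.431 percentage points as a plain share and by -0.0445 on the log2 scale without PBS6, so its direction was not settled. Ighv3-3 differed by -2.20 in EX (SE 1.30) and by -1.43 in IN (SE 0.94) on the log2 scale. As a plain share it differed by -4.01 percentage points in EX, but by -0.414 without PBS1, where the log2 difference was -1.21. In IN the plain share differed by -0.290 percentage points, and by -1.11 to 0.256 when a mouse was left out, so its direction was not settled either.

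The EX minus IN difference chose the segments, and its change with challenge is likewise a description. For Ighv3-3 the UPEC mean of this difference differed from the PBS mean by -3.72 percentage points, or by -2.51 by clonotypes and -0.799 by merged clonotypes, and without PBS1 it was 0.163 above it. For Ighv3-5 the UPEC mean was 2.73 percentage points above the PBS mean, and 1.42 to 4.05 above it when a mouse was left out, but 0.929 above it by clonotypes and 0.621 by merged clonotypes.

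Much of each segment lay in a few clonotypes. The 4 expanded clonotypes of Ighv3-3 held 506 of its 699 sequences (72.4%), and the 5 of Ighv3-5 held 160 of 335 (47.8%). Without PBS1 EX the Ighv3-3 share was 35.4% (75 of 212). This was not tested against other segments, where expanded clonotypes held 57.6% of Ighv3-1, 53.9% of Ighv3-8 and 15.0% of Ighv3-6 sequences, and 43.9% over all V segments other than the pair (40.2% without PBS1 EX). By group, the expanded clonotypes held 482 of 555 Ighv3-3 sequences in PBS EX, 24 of 36 in UPEC EX and none in IN. For Ighv3-5 they held 38 of 43 in PBS EX, 73 of 105 in UPEC EX, 28 of 104 in PBS IN and 21 of 83 in UPEC IN. The threshold of 20 sequences cut through a gap, since the smallest expanded clonotypes had 22 (Ighv3-3) and 21 sequences (Ighv3-5) and the next ones 9 and 7. After merging, PBS2, PBS4 and PBS6 EX each held a single Ighv3-3 clonotype, and PBS6 and UPEC2 EX each held a single Ighv3-5 clonotype. Where Ighv3-3 was found, libraries held 1 to 5 merged clonotypes of it in EX (6 libraries) and 1 to 16 in IN (10 libraries), and for Ighv3-5 these were 1 to 5 and 2 to 13. Counting libraries without the segment as 0, IN held more merged Ighv3-3 clonotypes than EX in 8 of 11 mice, fewer in PBS1 and UPEC4 and as many in UPEC5. For Ighv3-5 IN held more in 9 of 11 mice and fewer in PBS6 and UPEC4. Over all V segments IN held more merged clonotypes than EX in all 11 mice, for example 371 against 123 in PBS1 and 234 against 216 in PBS6. The counts of mice are therefore not particular to the pair. The most frequent clonotype made up 2 of 19 Ighv3-3 sequences in UPEC2 IN and 1 of 13 Ighv3-5 sequences in UPEC1 IN.

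**Figure D3:**
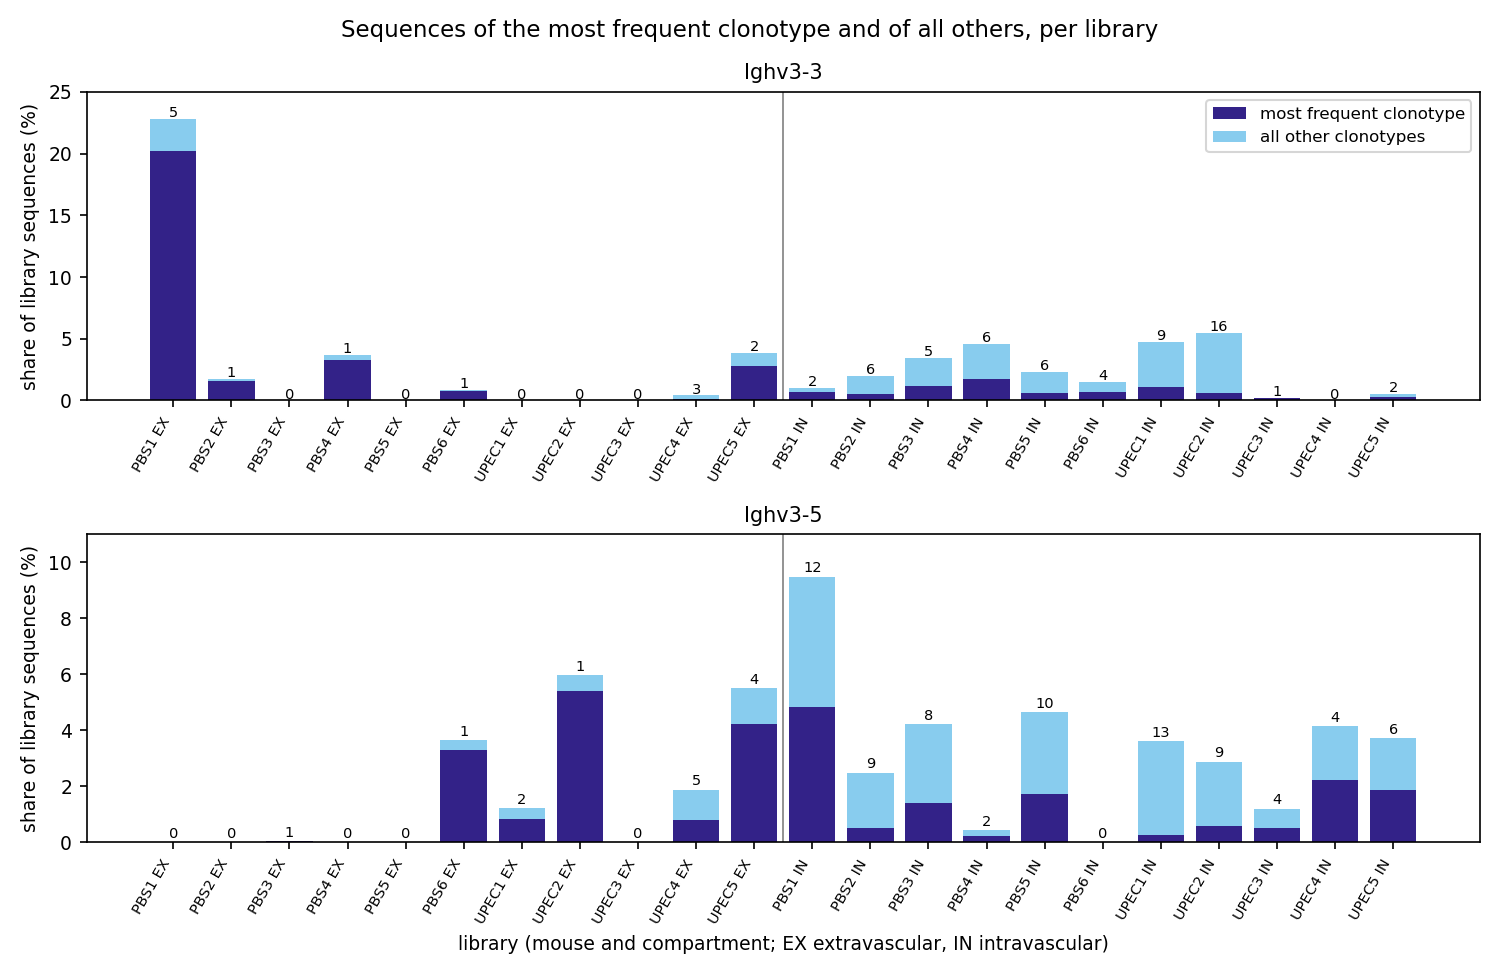
Share of library sequences (%) in the most frequent clonotype of Ighv3-3 (top) or Ighv3-5 (bottom) and in all its other clonotypes, for the 11 extravascular (EX) and 11 intravascular (IN) libraries; the number above a bar is the count of merged clonotypes. The dark part fills most of PBS1, PBS2, PBS4 and UPEC5 EX for Ighv3-3, and the light part most of UPEC1 and UPEC2 IN for both segments.

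Leaving out the expanded clonotypes lowers EX above all, since all 4 of Ighv3-3 and 3 of 5 of Ighv3-5 lay there. So did 94 of 103 expanded clonotypes of other V segments. The minimum of 20 sequences was the same for PBS EX libraries of 750 to 2134 sequences and PBS IN libraries of 344 to 611. The shares that remained are therefore given as values only. Ighv3-3 then had 0.806% ± 1.26 (SD, n = 6) in PBS EX and 2.47% ± 1.32 in PBS IN, and 0.297% ± 0.473 (SD, n = 5) in UPEC EX against 2.18% ± 2.69 in UPEC IN. Ighv3-5 had 0.0698% ± 0.144 in PBS EX and 2.78% ± 2.16 in PBS IN, and 1.01% ± 0.724 in UPEC EX against 2.68% ± 1.08 in UPEC IN. In PBS1 EX the Ighv3-3 share still came to 3.29%, mostly of junctions 1 nt from the one left out. Leaving these variants out too gave 0.242% in PBS1 EX (4 sequences), and means of 0.186% ± 0.350 in PBS EX and 0.202% ± 0.285 in UPEC EX for Ighv3-3. For Ighv3-5 the EX means were then 0.00975% ± 0.0239 in PBS and 0.795% ± 0.813 in UPEC mice.

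The PBS1 EX clonotype of Ighv3-3 outsized all the others. It joined Ighv3-3 to Ighd2-5 and Ighj2 with no inserted nucleotide, and it held 431 sequences and 5139 reads. These were 20.2% of the sequences and 27.1% of the reads of that library, where it ranked first among all clonotypes. The most-read sequence alone had 2668 reads. A further 42 Ighv3-3 clonotypes of this library, with 52 sequences, differed from it by 1 nt of the junction. The same junction was found in 4 sequences of PBS1 IN and in no other library.

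The other expanded clonotypes had 21 to 38 sequences. Those of Ighv3-3 held 29 sequences in PBS4 EX, 24 in UPEC5 EX and 22 in PBS2 EX, or 3.26%, 2.81% and 1.54% of their libraries. PBS4 EX and UPEC5 EX joined the segment to Ighd2-1 without an insert, with Ighj2 in the former and Ighj1 in the latter. PBS2 EX joined the segment to Ighd3-2 and Ighj1, with an insert of 16 nt in total that was split over both sides of the D segment. Those of Ighv3-5 held 38 sequences in PBS6 EX (3.31% of the library), 37 in UPEC2 EX (5.39%), 36 in UPEC5 EX (4.21%), 28 in PBS1 IN (4.83%) and 21 in UPEC4 IN (2.24%). The PBS1 IN clonotype was the most frequent of its library. Where a group had no expanded clonotype of Ighv3-3, its most frequent clonotype was small, with 8 sequences in PBS4 IN (joined to Ighj3) and 4 in UPEC1 IN (joined to Ighj4).

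Most sequences within an expanded clonotype differed from its most-read sequence by a single nucleotide. In PBS1 EX this held for 336 of the other 430 sequences, while 47 matched it over their shared length, 46 differed at 2 positions and 1 at more. Across the 9 expanded clonotypes the most-read sequence had 104 to 2668 reads, and the median sequence had 3 reads in PBS1 EX and 2 reads, the smallest number retained, in the other 8. The 336 single differences fell on 218 of 332 positions, none within the junction since the junction defines the clonotype. An A-to-C change was the most frequent kind, with 71 of 336, and 28.9% of the differences were transitions. In the other 8 clonotypes together, 79 of 190 single differences were A-to-C and 8.95% were transitions. The clonotype whose leading sequence had the most reads thus also had the most sequences, and the part of mutation, amplification and sequencing in these single differences was not tested.

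**Figure D4:**
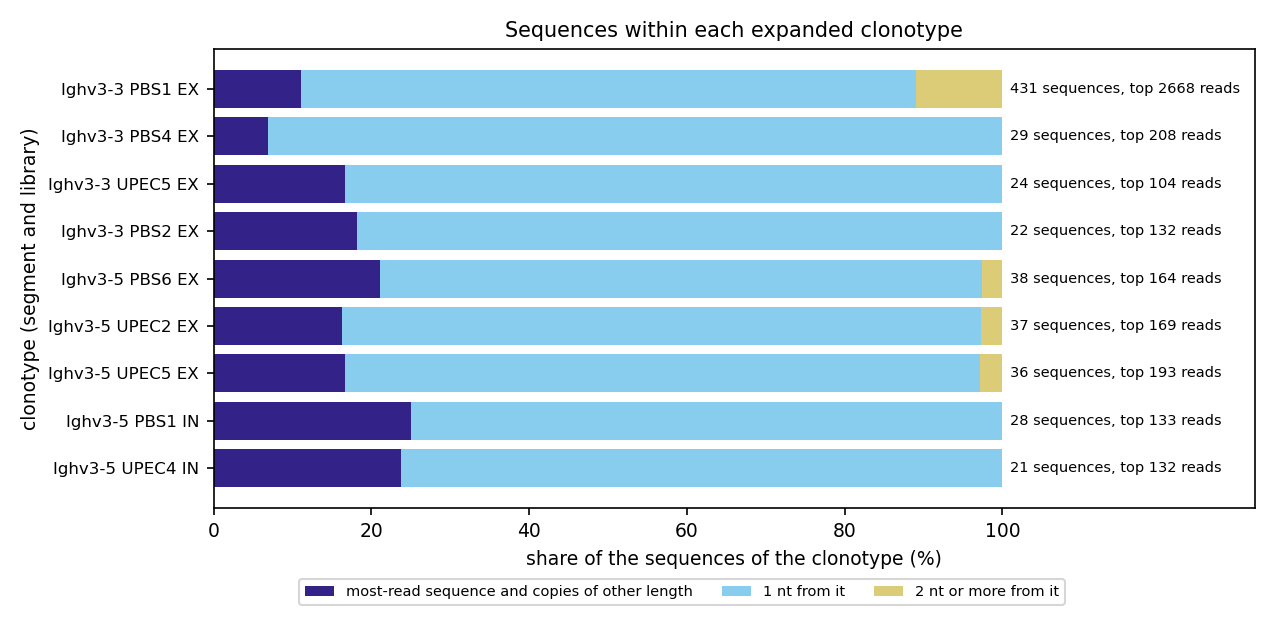
Make-up of the 9 expanded clonotypes as shares of their sequences (%): the most-read sequence with its copies of other length, sequences 1 nt from it, and sequences 2 nt or more from it; the text beside each bar gives the number of sequences and the reads of the most-read one. Sequences 1 nt from the most-read sequence make up the largest part of each bar, and only PBS1 EX, with 2668 reads for that sequence, has a sizeable part at 2 nt or more.

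The V parts of these sequences were close to the reference. The most-read sequence of each of the 9 expanded clonotypes matched its V segment at every compared position, 267 to 271 of them. Taking the most-read sequence with at least 200 nt of V of each clonotype in each library, 112 of 126 for Ighv3-3 and 113 of 119 for Ighv3-5 had no mismatch. Those with 2 or more mismatches numbered 2 and 1. By compartment, 58 of 67 Ighv3-3 clonotypes in EX and 54 of 59 in IN had no mismatch, against 24 of 27 and 89 of 92 for Ighv3-5.

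No clonotype of either segment was found in more than 1 mouse. This was 0 of 126 for Ighv3-3 and 0 of 119 for Ighv3-5, against 49 of 6588 (0.744%) over all V segments and 2 of 850, 1 of 807 and 1 of 966 for Ighv3-1, Ighv3-6 and Ighv3-8. Within a mouse, 2 clonotypes of Ighv3-3 (PBS1) and 1 of Ighv3-5 (UPEC4) occurred in both compartments.

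J segments supply the last part of the junction, and among them Ighj3 was rarely joined to Ighv3-3. Only 5 of 126 Ighv3-3 clonotypes used Ighj3, and 6 of 11 mice had none. Without PBS1 EX the pooled count was 5 of 81 (6.17%), against 20.2% for other V segments. After merging it was 5 of 69 (7.25%), against 20.9%. The mean share over mice was 4.68% ± 6.35 (SD, n = 11), against 19.7% ± 3.26 for all other clonotypes of the same mice, a difference of -15.0 percentage points (SD 5.38). It was lower in 11 of 11 mice (exact two-sided sign-flip permutation test over mice, p = 0.000977, adjusted p = 0.0240), which is the smallest p that 11 mice allow. Mice counted equally, although UPEC3 had 1 Ighv3-3 clonotype and UPEC4 had 3, none with Ighj3, at differences of -21.4 and -20.9. With so few clonotypes a share of 0 is easily reached. Over all segments, 12.8% of the 172 V and J pairs tested were called. In a single compartment the difference had the same sign but was not called, at -15.4 in EX (6 mice, adjusted p = 0.159) and -8.27 in IN (10 mice, adjusted p = 0.344), and the unadjusted p of 0.0313 in EX is the smallest that 6 mice allow. Ighv3-8 was also joined less often to Ighj3 (-12.7 percentage points, adjusted p = 0.0240), whereas Ighv3-6 was joined to it more often (7.89, adjusted p = 0.0354).

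The other J segments gave no call for either member. Ighv3-3 clonotypes used Ighj4 at 44.2% ± 27.2 against 24.8% ± 3.03 (p = 0.0449, adjusted p = 0.155, exact permutation test), Ighj1 at 33.5% ± 22.6 against 24.5% ± 4.35 and Ighj2 at 17.6% ± 29.3 against 31.0% ± 3.66 (SD, n = 11 mice). Ighj2 was at 95.8% of the Ighv3-3 clonotypes of PBS1 and at 0 in 5 mice. Ighv3-5 clonotypes used Ighj1 at 23.6% ± 22.1, Ighj2 at 32.2% ± 24.6, Ighj3 at 17.9% ± 32.1 and Ighj4 at 26.3% ± 30.1, and its means differed by -1.59 to 1.43 percentage points from those of the other clonotypes of the same mice. A mouse had as few as 1 clonotype of these segments, so its share could be 0% or 100%.

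**Figure D5:**
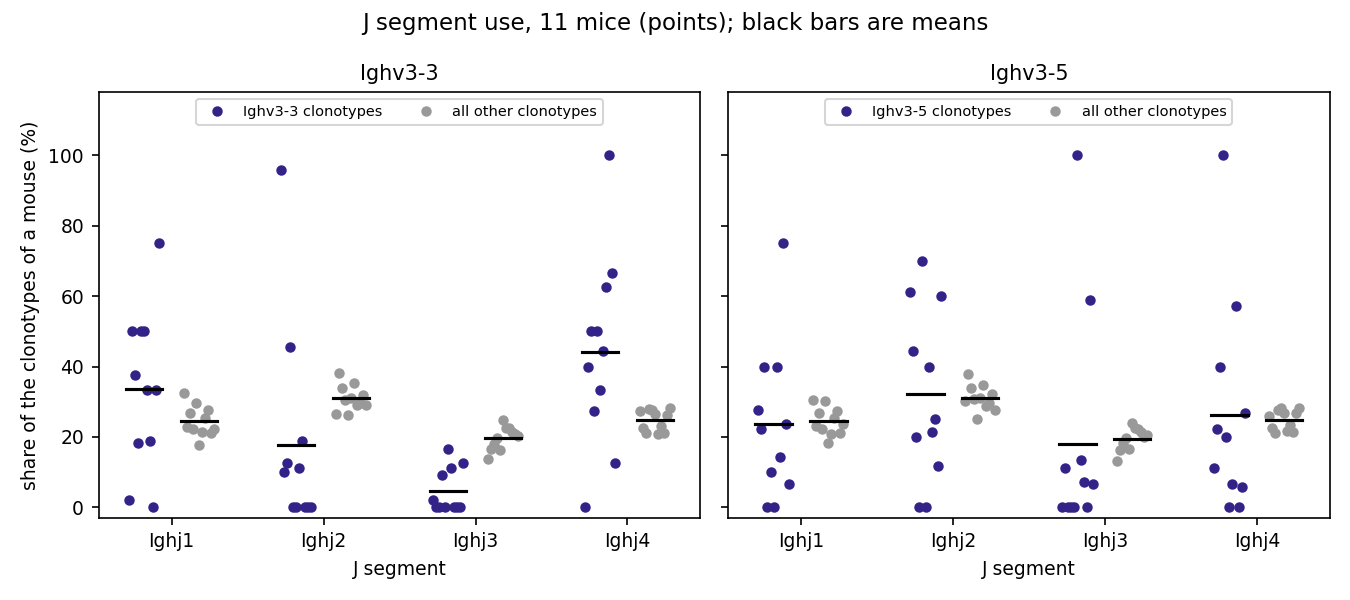
Share of the clonotypes of each mouse (%, one point per mouse, 11 mice) joined to each J segment, for Ighv3-3 (left) and Ighv3-5 (right) beside all other clonotypes; black bars are means. The Ighv3-3 points for Ighj3 lie between 0 and 16.7% and below the other clonotypes of their mouse, and the points of the minor segments spread far more than the grey ones.

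The leading D and J partners of Ighv3-3 depended on how it was counted. Of the Ighv3-3 sequences, 76.0% used Ighj2 and 70.2% used Ighd2-5, but these fell to 45.2% and 37.3% of clonotypes and to 15.9% and 13.0% of merged clonotypes. Without PBS1 EX they were 21.2% and 3.77% of sequences and 16.0% and 6.17% of clonotypes. Among merged Ighv3-3 clonotypes Ighd1-1 led, with 24 of 69, close to its 34.4% among merged clonotypes of other V segments. For Ighv3-5 over all libraries, Ighj2 and Ighd1-1 led by every count. Ighj2 was in 134 of 335 sequences, 45 of 119 clonotypes and 36 of 90 merged clonotypes. The leading D segments of Ighv3-5 were Ighd1-1 (28.6% of clonotypes), Ighd4-1 (16.0%) and Ighd2-3 (11.8%). By sequences their order rested on single libraries. Without UPEC2 EX, Ighd1-1 went from 27.5% to 17.3% (51 of 294), behind Ighd4-1, whose 71 sequences lay in other libraries. Ighd4-1 went from 21.2% to 9.90% without PBS6 EX, and Ighd2-3 from 16.1% to 5.90% without UPEC5 EX. Ighd4-1, a short D segment, made up 8.42% of the clonotypes of other V segments and 3.97% of those of Ighv3-3. Without PBS1 EX these shares were 8.58% and 6.17% (5 of 81), and among merged clonotypes 8.89% and 7.25%. D shares were not tested.

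The share of junctions without N nucleotides in Ighv3-3 also depended on the count. Among Ighv3-3 sequences with a D segment, 74.2% had no N nucleotide, against 18.4% of clonotypes (23 of 125) and 14.7% of merged clonotypes (10 of 68). The values for other V segments were 20.4%, 7.51% and 7.02%. Without PBS1 EX the share was 31.3% of Ighv3-3 sequences (66 of 211) and 12.5% of clonotypes (10 of 80), against 16.6% and 7.12% for other V segments. Of the 23 Ighv3-3 clonotypes without N, 13 came from PBS1 and 3 from UPEC5. For Ighv3-5 the shares were 5.25% of sequences, 6.09% of clonotypes (7 of 115) and 7.95% of merged clonotypes. The median insert was 3 nt over Ighv3-3 clonotypes and 6 nt over Ighv3-5 clonotypes, equal in the latter to the 6 nt of other V segments. Over merged clonotypes these medians were 4 nt for Ighv3-3, 5 nt for Ighv3-5 and 6 nt for other V segments.

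Compared within mice, neither segment stood apart. The insert of Ighv3-3 clonotypes was 5.18 nt ± 2.38 against 6.36 nt ± 0.309 for other clonotypes (SD, n = 11 mice), lower in 9 of 11 mice, with an adjusted p of 0.346 in the exact sign-flip permutation test. It ranged from 2.7 nt in PBS1 to 11.3 nt in PBS2. For Ighv3-5 it was 6.11 nt ± 2.00 against 6.34 nt ± 0.340 (adjusted p = 0.897). The share without N nucleotides was 9.44% ± 13.1 for Ighv3-3, or 1.87 percentage points above the others (adjusted p = 0.900), and 5.50% ± 5.75 for Ighv3-5, or 2.23 below (adjusted p = 0.536). The CDR3, the loop that the junction encodes without its first and last codon, was 11.98 codons ± 1.27 long for Ighv3-3 and 11.61 ± 0.949 for Ighv3-5, against 11.98 for the other clonotypes in both comparisons (adjusted p = 0.998 and 0.360). Across all segments, 19% of 42 were called for insert size, 35.7% of 42 for the share without N and 30.2% of 43 for CDR3 length.

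Each sequence carried its reads in 9 constant region fields, of which the name of the first, Igha, was complete in the files. If the fields are in alphabetical order, which the files did not settle, the second is Ighd and the ninth Ighm. The ninth field held 682 of 699 Ighv3-3 sequences (97.6%) and 306 of 335 Ighv3-5 sequences (91.3%), against 89.0% for other V segments. All sequences of the 9 expanded clonotypes were in this field. The second field held 15 Ighv3-3 and 17 Ighv3-5 sequences, or 2.15% and 5.07%, against 8.34% for other V segments. PBS1 EX set the Ighv3-3 share, which was 7.08% (15 of 212) without that library, against 9.24% for other V segments, while the ninth field then held 92.0% against 87.9%. By clonotype, 11.1% of Ighv3-3 and 14.3% of Ighv3-5 clonotypes had a sequence in the second field, against 19.2% of the others, with no test made. These sequences came from 14 and 17 clonotypes, of which 6 and 6 also had sequences in the ninth field. By group, the second field held 1 of 555 Ighv3-3 sequences in PBS EX, 7 of 69 in PBS IN, 1 of 36 in UPEC EX and 6 of 39 in UPEC IN. For Ighv3-5 these were 0 of 43, 6 of 104, 2 of 105 and 9 of 83. Pooled over libraries and without a test, sequences of other V segments in the second field came to 3.70% in PBS EX, 17.0% in PBS IN, 8.97% in UPEC EX and 11.9% in UPEC IN.

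Sequences outside the second and ninth fields were few. Igha, the constant region of IgA, was carried by 9 Ighv3-5 sequences (2.69%) of 4 clonotypes in 4 mice and by 0 of 699 Ighv3-3 sequences, against 1.83% for other V segments. Of the 9 sequences, 6 came from a single clonotype in UPEC4 IN, and without that library the Ighv3-5 share was 1.01% (3 of 296), against 1.92% for other V segments. Among all Ighv3-5 clonotypes, 7 of 115 lacked N nucleotides, a measure that leaves P nucleotides out. The 65 Igha clonotypes of other V segments were not compared for inserts. The junctions of the 4 Igha clonotypes of Ighv3-5 are printed because 3 of them have no inserted nucleotide.
Ighv3-5 PBS2 IN: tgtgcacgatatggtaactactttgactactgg
Ighv3-5 PBS5 IN: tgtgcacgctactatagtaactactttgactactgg
Ighv3-5 UPEC5 EX: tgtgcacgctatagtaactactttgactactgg
Ighv3-5 UPEC4 IN: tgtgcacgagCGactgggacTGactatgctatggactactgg
The first 3 came from different mice, joined Ighd2-1 or Ighd2-5 to Ighj2, and had 1, 1 and 4 sequences with 3, 4 and 20 reads. The UPEC5 EX clonotype held 1 sequence in Igha and 3 in the sixth field. The UPEC4 IN clonotype, with 6 sequences and 26 reads, all in Igha, had an insert of 4 nt and joined Ighd4-1 to Ighj4. The most-read sequence of each matched Ighv3-5 over all 267 to 272 compared positions. The PBS1 EX clonotype of Ighv3-3 used the same pair of segments, Ighd2-5 and Ighj2, without an insert, in the ninth field. Ighv3-3 had a single clonotype outside the second and ninth fields, in UPEC2 IN, with 1 sequence of 2 reads in each of the third and eighth fields. These 4 clonotypes were too few to compare between groups, and no test was made of their junctions.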

How the data were processed

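The 22 deposited tables have a row per retained productive Igh sequence. Per the study's methods, the authors quality-filtered and merged paired reads and grouped them by primer barcode. They kept sequences with more than 1 read and assigned V and J segments with IMGT/V-QUEST. D segments and junctions were taken here as deposited. The deposited values used here are names, nucleotides and positions, and reads per constant region within the sequence identifier, which the files break off at 50 characters, so that only the name of the first of 9 fields is whole. The files name no genome build; coordinates and reference sequences are from GRCm38.

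Members were matched by the first V name. They, the comparison segments and the tests were chosen with earlier results of these data known. Named clonotypes were those with at least 20 sequences in a library and the most frequent of each member in each group; clonotypes in several mice were to be named too, but there were none. Shares were tested with limma 3.58.1 on log2 values (prior 0.5 sequences), junction features and J use by exact sign-flip tests over mice for every segment in at least 6 mice, and single values by exact permutation tests, with Benjamini-Hochberg adjustment over all segments (threshold 0.05). Tests were checked on simulated data, where the N-free share, a measure with many values of 0, was called too often for segments without a change. Mice are the replicates; libraries held 244 to 2134 sequences and 936 to 18956 reads. Rows without a D segment (2.29%) were left out of insert measures. Python 3.11.15, scipy 1.17.1 and R 4.3.3 were used.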

Additional observations from a re-analysis of the deposited data

Results flagged for a closer look

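In 5 of 16 group values a single library stood apart from the rest of its group by Dixon's criterion. Chance alone gives about 1 in 20 groups, but shares by sequences and by clonotypes describe the same libraries, and the PBS EX shares are among those on which the segments were selected, so the number is not set against chance. For Ighv3-3 these were PBS1 EX, with 22.8% of sequences (next highest 3.71%) and 14.5% of clonotypes (next highest 1.79%), and UPEC5 EX, with 3.86% of sequences (next highest 0.404%). For Ighv3-5 it was PBS6 EX, with 3.66% of sequences (next highest 0.0585%) and 1.64% of clonotypes (next highest 0.282%). Each of these libraries held an expanded clonotype of the segment.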

How the results depend on the processing

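Merging of 1 nt variants, the restriction to a V of at least 200 nt, the removal of expanded clonotypes with their 1 nt variants, the constant region shares by clonotype, pooled shares without each library and plain shares without each mouse were added after the data had been seen. The lower use of Ighj3 by Ighv3-3 kept its call under every alternative but the single compartments, at -15.7 to -14.3 percentage points when a mouse was left out, -12.7 after merging, -14.7 with amino acid clonotypes, -11.6 with at least 3 reads and -15.2 with a long V. Between UPEC and PBS, segments called in EX numbered 0 to 1 when a mouse was left out (1 without PBS6 or UPEC3) and 0 otherwise. The segment in question was Ighv3-5, whose PBS EX shares entered its selection, so the count of 1 is no independent result. The change of the EX minus IN difference with challenge (UPEC minus PBS) was -4.88 to 0.163 percentage points for Ighv3-3 and 1.42 to 4.05 for Ighv3-5 when a mouse was left out, against -3.72 and 2.73 with all mice.

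PBS and UPEC mice share mouse numbers, and the sample titles do not say whether equal numbers mark a pair. In each compartment 1 of 5 such pairs had a correlation of deviations over 0.1 (-0.365 to 0.154 in EX). So few correlations, with no reference for unpaired mice, cannot decide this. With the number as a replicate block, which leaves PBS6 without a partner and so out of the comparison, 0 segments were called, Ighv3-5 in EX differed by 4.56 and in IN by -0.0445, against 0.78 without it. Ighv3-5 in IN was also negative as a plain share (-0.431 percentage points) and was -0.0445 to 1.27 when a mouse was left out.

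Counts of segments called over all V segments were lower under several alternatives, and the cause was not tested. For insert size 8 became 5 with at least 3 reads and 3 in EX, and 8 to 10 when a mouse was left out. For the share without N, 15 became 8 and 8, and 10 to 15; for CDR3 length, 13 became 5, 4 and, with a long V, 5, and 10 to 15; for J use, 22 became 6 in EX and 14 in IN, and 7 to 23.

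Differences of the members that were not called changed sign as follows, and the cause was not tested. The Ighv3-3 CDR3 length difference was 0.0063 codons with amino acid clonotypes, 0.30 in IN, 0.0899 after merging, 0.27 with a long V and -0.212 to 0.17 when a mouse was left out. Its share without N ranged from -1.16 to 3.07, and its Ighj2 difference was 2.41 in EX. The Ighv3-5 insert difference was 0.11 nt with a long V and -0.626 to 0.0530 when a mouse was left out, and its share without N was 0.0179 higher in EX. Its Ighj1 difference was 0.13 with amino acid clonotypes, 4.80 in EX, 1.42 in IN, 4.49 after merging and -5.76 to 1.22 when a mouse was left out. Its Ighj2 difference was -0.405 with at least 3 reads, -5.54 in EX and -3.32 to 4.27 when a mouse was left out. Its Ighj3 difference was 4.00 in EX and -9.35 to 0.394 when a mouse was left out, and its Ighj4 difference was -3.26 in EX, -0.375 after merging and -5.68 to 4.26 when a mouse was left out. A mouse had 1 to 48 clonotypes of Ighv3-3.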
